A study of Mus musculus with 6 samples.

Results

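Secreted antagonists of Wnt signaling were examined in mouse RPE/choroid, the sheet of pigmented epithelium under the photoreceptors and the blood vessel layer that feeds it. The genes were picked by symbol and comprised 9 antagonists (Sfrp1, Sfrp2, Sfrp4, Sfrp5, Frzb, Dkk1, Dkk2, Dkk3 and Wif1) and the Wnt target Axin2. All 10 were among the 33924 genes of the deposited table. The libraries came from C57BL/6J mice, with 3 libraries from young and 3 from aged mice, no treatment and no altered allele. The titles give the ages as 1 to 2 months for young mice and 20 to 24 months for aged mice, while the time label of the aged mice begins at 22 months. Each mouse is labelled male, although the methods of the study include females and give an older range for the young group. Total RNA was depleted of ribosomal RNA without selecting for poly(A) tails, and each library was made from a pair of eyes.

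The value used for each gene is the authors' baseMean, a mean of normalized counts across all 6 libraries. It averages young and aged mice, so it shows how much RNA of a gene the tissue held and not how that amount differed with age. No difference between young and aged mice is given here, because values of single libraries were not analysed here and the authors' own fold changes and p-values were not used. No SD, range over mice or test could be attached to a level, and the depth of each library is unknown here. A difference between neighbouring genes in the order of levels therefore could not be set against the spread between mice.

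Wnt proteins are secreted, lipid-modified ligands that bind Frizzled receptors together with the co-receptors Lrp5 and Lrp6. In the canonical branch this stabilizes beta-catenin, which enters the nucleus and activates genes with TCF/LEF factors. The antagonists act outside the cell at separate steps. Secreted Frizzled-related proteins (Sfrp1, Sfrp2, Sfrp4, Sfrp5 and Frzb, also known as Sfrp3) carry a cysteine-rich domain like that of Frizzled and bind Wnt ligands. Wif1 also binds ligands, whereas Dkk1 and Dkk2 bind the co-receptors. Axin2 is an intracellular scaffold of the complex that degrades beta-catenin, and its transcription is raised by the pathway as a feedback.

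Among the 9 antagonists, Dkk3 held most of the RNA in RPE/choroid, and Dkk1 was the scarcest. The authors' mean was 17594 normalized counts for Dkk3, which ranked 77th from the top of the table and lay above 99.7% of the 26681 genes with a level above 0. Dkk3 held 73.8% of the summed mean of the 9 antagonists, and 72.7% when each mean was first divided by transcript length. Dkk1 stood at 16.7 normalized counts, or 0.0701% of that sum. All 10 genes reached a floor of 10 normalized counts, as did 53.0% of all genes in the table. At a floor of 100, the count was 8 of 10, against 37.9% of all genes, with Dkk1 and Wif1 below it. The shares over all genes include non-coding genes and genes at 0, whereas all 10 genes examined are protein-coding. Of 16444 protein-coding genes with a level above 0 and a known length, 13827 reached the floor of 10.

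**Figure D1:**
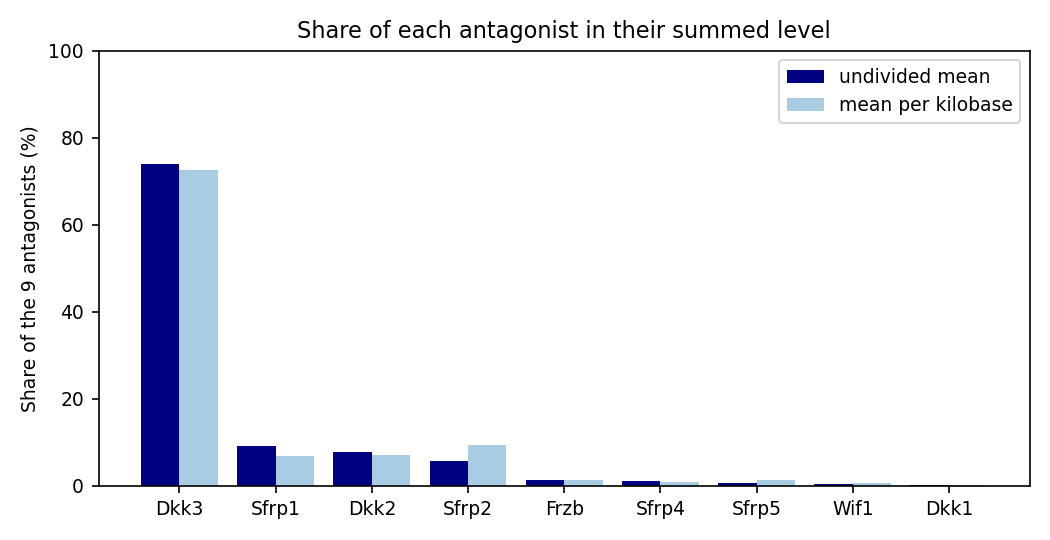
Share of each antagonist in the summed level of all 9, in percent, with dark bars for the undivided mean over 6 libraries and light bars for the mean per kilobase of the longest transcript. Dkk3 stands at 73.8% and 72.7%, and each of the other antagonists is below 10%.

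Levels of different genes were compared per kilobase of the longest annotated transcript. The methods of the study state that TPM values, which are already scaled by length, were turned into the normalized counts, so division by length may correct for it more than once, and whether baseMean still depends on length is uncertain. If it does not, the undivided means are the values to compare, and their order was Dkk3, Sfrp1, Dkk2, Sfrp2, Axin2, Frzb, Sfrp4, Sfrp5, Wif1 and Dkk1. Over 13827 protein-coding genes at or above the floor, the mean had a Spearman correlation of 0.30 with this length, 0.18 with the coding length and -0.014 with the median transcript length, given as descriptions since the genes share libraries. Per kilobase, Dkk3 had 5238 normalized counts, which was 7.84 times the next gene, Sfrp2. Under an undivided mean, the coding length or the median transcript length, Dkk3 remained first at 2.35 to 8.08 times the next gene, and Dkk1 remained last. The 2.35 is over Sfrp2 by the median transcript, which for Sfrp2 is shorter than its coding sequence. By coding length the ratio to the next gene was 6.99.

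The Dickkopf genes spanned the widest range. Dkk3 on chromosome 7 at 112116017 to 112159057 (GRCm38, minus strand) has 1 annotated transcript of 3359 bases in 8 exons. It is the divergent member of its family, and its part in Wnt signaling is less well defined than that of Dkk1 and Dkk2. Dkk2, on chromosome 3 at 132085292 to 132180304 (plus strand), had a mean of 1868 normalized counts and 504 per kilobase. Dkk1, on chromosome 19 at 30545863 to 30549665 (minus strand), had 6.89 per kilobase. Both proteins bind Lrp5 and Lrp6, but the level per kilobase of Dkk2 was 73.2 times that of Dkk1 (117 times by coding length), and that of Dkk3 was 761 times that of Dkk1. Among protein-coding genes with a level above 0, Dkk1 lay above 18.5% per kilobase and Dkk2 above 86.5%.

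Among the Frizzled-related genes, Sfrp2 and Sfrp1 were the most abundant. Sfrp2, on chromosome 3 at 83766321 to 83774316 (plus strand), had a mean of 1338 normalized counts and 668 per kilobase. Sfrp1, on chromosome 8 at 23411502 to 23449632 (plus strand), had a higher undivided mean of 2177 but 498 per kilobase, as its transcript of 4372 bases is longer than the 2003 bases of Sfrp2. Sfrp2, Dkk2 and Sfrp1 thus stood within a factor of 1.34 per kilobase, and their order changed with the length used. Per kilobase of coding sequence, Dkk2 had 2404 normalized counts, Sfrp1 had 2312 and Sfrp2 had 1512. Division by the median transcript put Sfrp2 at 2230 per kilobase, 4.42 times Dkk2 and 4.48 times Sfrp1. That median, over all annotated transcripts, is 600 bases for Sfrp2 and shorter than its coding sequence of 885 bases. These values for Sfrp2 therefore rest on a length that cannot hold its full coding sequence.

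The other Frizzled-related genes were lower. Frzb, on chromosome 2 at 80411970 to 80447625 (minus strand), had a mean of 299 normalized counts and 94.9 per kilobase. Sfrp5, on chromosome 19 at 42197971 to 42202252 (minus strand), had 169 and 89.0 per kilobase. Sfrp4, on chromosome 13 at 19623104 to 19632994 (plus strand), had 265 and 65.5 per kilobase. By their undivided mean, Frzb, Sfrp5 and Sfrp4 lay above 63.8%, 56.7% and 62.1% of genes of all kinds with a level above 0. Per kilobase, they lay above only 48.2%, 46.9% and 41.3% of protein-coding genes with a level above 0. Sfrp2 had 7.51 times the level per kilobase of Sfrp5, and 8.43 times by coding length. The ratio was 25.1 by the median transcript, which for Sfrp2 is shorter than its coding sequence.

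Wif1, whose product binds Wnt ligands through a domain unrelated to Frizzled, is on chromosome 10 at 121033960 to 121100650 (plus strand). Its mean was 97.4 normalized counts, or 42.5 per kilobase, above Dkk1 and below each Frizzled-related gene. Axin2, on chromosome 11 at 108920349 to 108950783 (plus strand), had a mean of 528 normalized counts and 124 per kilobase. It had rank 5 of the 10 per kilobase, with 1.31 times the level of Frzb, and Sfrp1 had 4.02 times its level. With 7 annotated transcripts, Axin2 was the gene whose level per kilobase of transcript depended most on the transcript chosen. Division by the median transcript gave 502 per kilobase, next to Dkk2 and Sfrp1. That median of 1051 bases is shorter than the Axin2 coding sequence of 2520 bases, so it cannot hold the full coding sequence. Per kilobase of coding sequence Axin2 had 210 normalized counts and rank 7, below the 309 of Frzb and the 242 of Sfrp4, and Sfrp1 had 11.03 times its level.

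**Figure D2:**
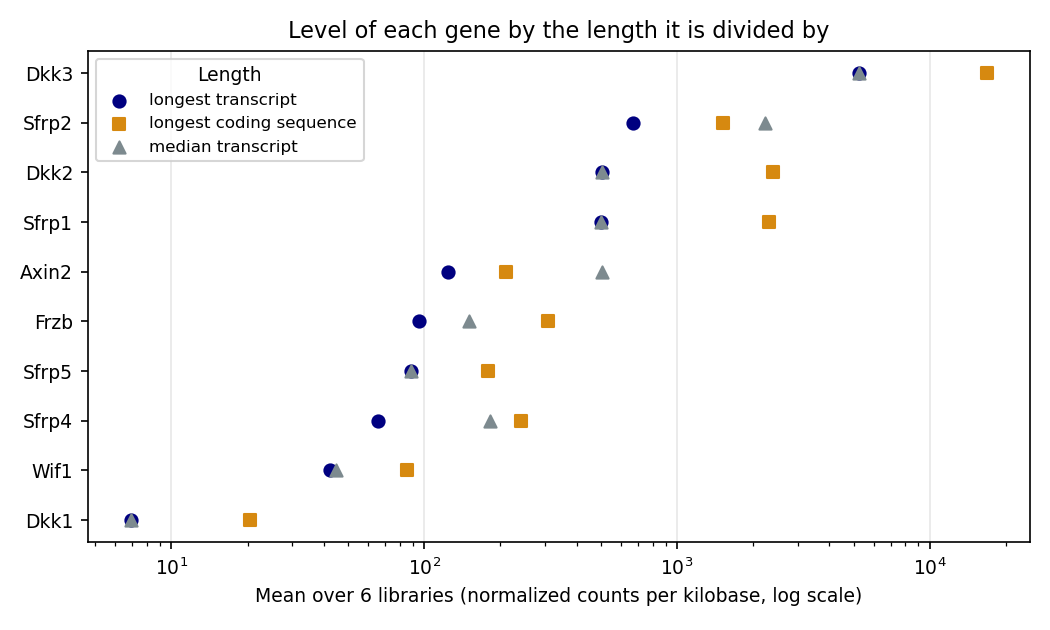
Mean over 6 libraries of each gene in normalized counts per kilobase on a log scale, with circles for division by the longest transcript, squares by the longest coding sequence and triangles by the median transcript. Dkk3 is highest and Dkk1 lowest by each length, while Sfrp2, Dkk2 and Sfrp1 change places. The median transcripts of Sfrp2 and Axin2 are shorter than their coding sequences.

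By family, the 5 Frizzled-related genes summed to 1416 normalized counts per kilobase and Dkk1 with Dkk2 to 511, a ratio of 2.77. Without Dkk3, the remaining 8 antagonists summed to 1969 per kilobase. The 19 Wnt ligand genes summed to 645 per kilobase, so that the antagonists with and without Dkk3 had 11.2 and 3.05 times the ligand RNA. Per kilobase of coding sequence, these ratios were 9.91 and 2.93, and by the undivided mean 8.81 and 2.30. They compare RNA only, since proteins were not measured and ligands, antagonists and receptors may be made by separate cells of the tissue.

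The targets of the antagonists were present in the same RNA. Of the ligands, 13 of 19 reached the floor and Wnt1 was listed at 0. The 3 highest ligands per kilobase were Wnt5a with 186 normalized counts, Wnt2b with 89.1 and Wnt9a with 72.0. Wls, the carrier that escorts Wnt proteins to the cell surface, had 2630 per kilobase, and Porcn, the enzyme that acylates them, had 82.4. All 16 receptor and co-receptor genes reached the floor, led by Lrp6 with 894 per kilobase, Fzd1 with 887 and Fzd7 with 615. The 10 Frizzled genes together had 1.70 times the level per kilobase of the 5 Frizzled-related genes, 1.40 times per kilobase of coding sequence and 2.73 times by the undivided mean. Lrp5 and Lrp6 together had 2.10 times that of Dkk1 and Dkk2, but 0.848 times per kilobase of coding sequence and 5.28 times by the undivided mean, so the order of these sums depended on the length.

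Other antagonists outside the 9 were measured for comparison. Of the 14 listed, 10 reached the floor. The highest per kilobase was Igfbp4, an IGF-binding protein also described as a Wnt inhibitor, with 3074 normalized counts. Shisa2, which holds Frizzled in the endoplasmic reticulum, had 445 per kilobase, and Sostdc1, a secreted antagonist of BMP and Wnt, had 355. The median per kilobase was 109 for the 10 genes examined and 30.0 for these 14. Dkk4, the remaining Dickkopf gene with Wnt activity, stood at 1.14 normalized counts, below the floor.

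Downstream, Ctnnb1 (beta-catenin) had 7605 normalized counts per kilobase, followed by Csnk1a1 with 2148 and Gsk3b with 368, the kinases that mark beta-catenin for degradation. All 11 genes of this list reached the floor. Among the 9 nuclear factors, which all reached the floor, Pygo2, Ctnnbip1 and Pygo1 were highest with 196, 170 and 144 per kilobase. In the R-spondin group, whose ligands strengthen Wnt signaling, 7 of 9 genes reached the floor, led by the receptor Lgr4 with 300.1, the ligase Znrf3 with 62.3 and Rspo3 with 37.9 per kilobase. Of 13 common Wnt targets, 12 reached the floor, and Axin2 was the third highest per kilobase after Ccnd1 with 613 and Nkd2 with 228. The target Sp5 had a mean of 5.30 normalized counts, below the floor.

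**Figure D3:**
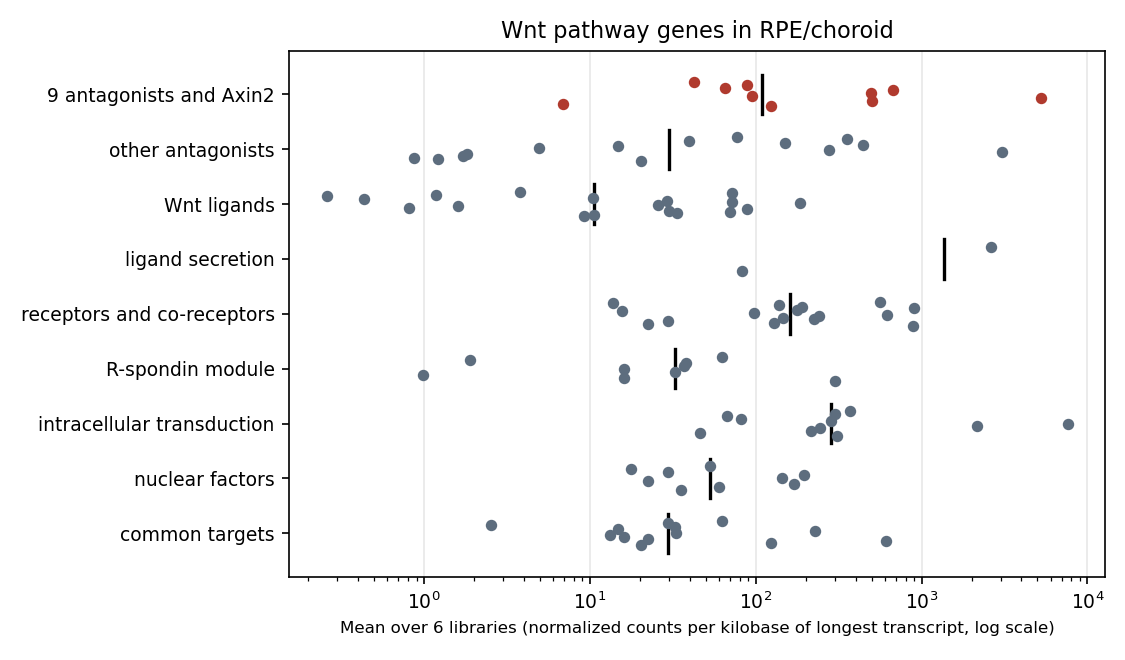
Mean over 6 libraries in normalized counts per kilobase of the longest transcript, on a log scale, for each gene of 9 Wnt pathway lists, with the median of each list as a black line and the 9 antagonists and Axin2 in red. Wnt1, at 0, enters the median but cannot be drawn, and the ligands have the lowest median, 10.6 normalized counts per kilobase, against 109 for the genes in red.

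The labelled tissue was checked against markers, and it held RNA of several cell types in which an antagonist could be expressed. RPE markers had a median of 6135 normalized counts per kilobase, from Best1 at 33.6 to Ttr at 83745. Pigment genes listed for melanocytes, which the RPE also expresses, ran from Slc45a2 at 1339 to Pmel at 27072, and stromal and scleral fibroblast markers from Kera at 174 to Col1a2 at 12072. Endothelial markers lay between Cdh5 at 257 and Plvap at 1187, pericyte and smooth muscle markers between Cspg4 at 169 and Rgs5 at 5211, and macrophage markers between Mrc1 at 541 and C1qa at 3633. Markers of tissue outside RPE and choroid were present as well, with the rod gene Nrl at 1164, skeletal muscle genes from Ckm at 4719 to Acta1 at 12062, lens genes from Bfsp1 at 70.6 to Cryaa at 1559 and other retinal genes at a median of 185. That last list ran from Grm6 at 17.5 to Pax6 at 433, apart from Glul at 10247, an enzyme made in many tissues. Each of these values is in normalized counts per kilobase. Bulk RNA does not show which of these cells carried an antagonist, and many cells with little RNA of a gene cannot be told apart from few cells with much of it. The part of retinal, lens or muscle RNA in the antagonist levels was not tested.

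Promoter sequence from RefSeq (GRCm38.p6) was matched for 7 of the 10 genes, all but Dkk3, Sfrp1 and Sfrp4. Over the 250 bases before the RefSeq start, GC content ran from 55.6% for Dkk2 to 69.2% for Axin2, against a median of 52.4% over 32851 promoters. The letters TATAA, searched on both strands, occurred in the windows of Dkk1, Dkk2 and Wif1, and in 22.8% of all promoters. The TCF/LEF core letters CTTTGAT or CTTTGTT, on either strand, occurred in the window of Dkk1 only among the 7, and in 8.06% of all promoters. The RefSeq start of Dkk1 lies 169 bases inside the gene as GENCODE annotates it, and both Dkk1 matches fall within that GENCODE span. The RefSeq starts of Frzb and Wif1 likewise lie 229 and 44 bases inside, so the windows of these 3 genes hold annotated gene sequence. These are matches of letters, not sites shown to be used. The upstream windows of Dkk2, the most abundant of the 7 by the undivided mean, and of Axin2, the pathway target, are shown for comparison, 5′ to 3′ on the plus strand, because they have the lowest and the highest GC content of the 7. Capitals mark TATAA, which in Dkk2 lies just upstream of the start. The window of Dkk2 is chr3:132085042-132085291 with 7 CpG pairs, and that of Axin2 is chr11:108920099-108920348 with 24.
Dkk2: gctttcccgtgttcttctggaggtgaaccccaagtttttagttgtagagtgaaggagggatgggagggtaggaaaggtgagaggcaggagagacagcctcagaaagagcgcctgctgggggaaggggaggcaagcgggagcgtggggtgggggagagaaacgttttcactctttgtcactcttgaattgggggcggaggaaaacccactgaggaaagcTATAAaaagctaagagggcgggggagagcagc
Axin2: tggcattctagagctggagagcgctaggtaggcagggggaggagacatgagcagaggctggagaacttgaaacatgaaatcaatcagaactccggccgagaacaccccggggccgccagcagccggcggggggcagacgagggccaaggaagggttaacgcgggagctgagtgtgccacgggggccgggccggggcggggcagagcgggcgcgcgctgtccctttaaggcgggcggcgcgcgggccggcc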

How the data were processed

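By the methods of the study, the authors used BBDuk for trimming, STAR for alignment to the Ensembl GRCm38 transcriptome, Sailfish with default parameters for TPM values, a total-count method that turned TPM into normalized counts, and DESeq2. The deposited signal used here is baseMean, the authors' mean of normalized counts over all 6 libraries. The remaining 5 value columns hold the authors' own comparison of young and aged mice (log2 fold change, its standard error, Wald statistic, p and adjusted p). They were not used, and 0 columns named a sample. The kit was stranded. Sailfish shares ambiguous reads out by estimated abundance, and whether strand was used in quantification is not given in the sources used here. Antisense genes overlap Sfrp2 (Gm26771) and Axin2 (Gm11670, at 4.65 normalized counts).

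Transcript lengths and positions came from GENCODE M21 (GRCm38), in which 28514 symbols of the table had a unique match. Of 160 list genes, 3 were found by an older symbol in RefSeq. Levels per kilobase are baseMean divided by length. All members are named, with the 3 highest genes per kilobase of each pathway list and the ends of each marker list, except that some marker values are not reported here; Dkk4, Wnt1 and Sp5 were named after their values were seen. Members and lists were chosen with earlier results of these data known. The functions for percentiles and shares were tested on simulated data. Python 3.11.15 and pandas 2.3.3 were used.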

Additional observations from a re-analysis of the deposited data

How the results depend on the processing

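No value per library entered, so a value counts as moved here when it changed by 1.5 times or more. The order of the 10 genes rested on the length used. Compared with division by the longest transcript, 6 genes kept their place under the undivided mean, 5 under the median transcript and 3 under the coding length. The share of Dkk3 was 73.8% of the 9 antagonists and 43.8% once the other listed antagonists were added, as Igfbp4 is among these. Among genes at or above the floor only, the percentiles of Sfrp5, Wif1 and Dkk1 moved from 56.7, 51.5 and 37.1 to 35.8, 28.0 and 6.70. At floors of 1, 10 and 100 normalized counts, 10, 10 and 8 of the genes were counted, and 83, 72 and 54 of 85 other pathway genes. No paired analysis was possible because the authors' file gives 1 mean per gene over all mice. For the same reason the planned limma comparison of aged and young mice, its pseudocount and the fits that leave out a replicate were not run. The protein comparison was not run, since no protein sequences were used here.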
